A study of Arabidopsis thaliana with 12 samples.

Results

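COR27 (AT5G42900), AT4G33980 (also called COR28) and CCL (AT3G26740) are 3 Arabidopsis thaliana genes linked to the circadian clock. They were chosen by name, as the probe sets that the array annotation gives to a single gene with one of these names. The choice of these genes, and of the gene lists below, was made with earlier results of these data known. Their calls, set beside the shares of all probe sets, are therefore a description and no independent evidence. Each gene had 1 such probe set, so the 3 genes were read from 3 of the 13513 single-gene probe sets, which cover 13286 genes, among 22810 probe sets in all. Each of the 3 probe sets was bright enough to be tested.

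The samples were roots of accession Col-0 at 3.90 weeks by the labels, grown in hydroponic culture at 23 °C by day and by night. Plants were held at pH 4.5 for 1 h, at pH 6 for 1 h, at pH 4.5 for 8 h or at pH 6 for 8 h, with 3 Affymetrix ATH1 arrays in each of these 4 groups. All groups shared the strain, the nutrient solution, a culture that was not sterile and germination on 0.7% agarose. The labels give no sample from before the treatment, no light regime and no hour of the day at sampling. Duration of treatment and hour of the day therefore cannot be told apart in a comparison of 8 h with 1 h. Nor is it stated if the 3 replicates of a group were grown in separate cultures, so the p-values cover the spread between these arrays alone, and that spread may be technical. In whole roots, fewer cells of a type and less RNA per cell cannot be told apart either.

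The plant circadian clock is a set of transcription factors and cofactors that repress or activate one another in sequence over the day, so that morning, daytime and evening genes follow each other. COR27 and COR28 are related small nuclear proteins whose transcripts respond to cold, to light and to the clock, and which are known to repress evening clock genes. CCL, for CCR-like, is known for an unstable transcript whose decay is under control of the clock. The clock also runs in roots, where signals from the shoot and light reaching the root can set its phase.

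The values are array signals made by the authors on a linear scale, with every array scaled to the same trimmed mean of 100.01. Array medians lay between 38.2 and 40.2. Precision is limited by the number of arrays, with a typical (median) SE of 0.14 for a log2 difference over the 15922 probe sets tested. At 1 h the array medians did not overlap between the pH groups (40.1 ± 0.183 at pH 6 and 38.3 ± 0.0768 at pH 4.5; SD, n = 3). The 3' to 5' signal ratio of actin, a measure of RNA and labelling quality, was also lower at pH 6 on both actin probe set pairs at 1 h, with means of 14.6 ± 4.02 against 19.9 ± 1.51 and of 2.31 ± 0.0446 against 2.96 ± 0.425. The part of these array properties in the pH differences at 1 h was not tested. All 3 genes had modest signals. Their means over the 12 arrays were 23.8 for COR27, 47.5 for AT4G33980 and 30.3 for CCL, higher than 40.2%, 53.4% and 44.3% of the probe sets on the array.

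COR27 was lowest after 1 h at pH 6 and highest after 8 h at either pH. At pH 6 and 1 h the arrays read 7.82, 6.38 and 6.55, and at pH 4.5 and 1 h they read 17.1, 23.0 and 18.2. At 8 h the signals were 32.9, 32.9 and 38.3 at pH 4.5 and 33.8, 40.1 and 28.7 at pH 6. The pH groups were separate at 1 h and overlapped fully at 8 h, and each 8 h array lay above each 1 h array. In order of level, the group means rose from 6.91 ± 0.788 (pH 6, 1 h) through 19.4 ± 3.11 (pH 4.5, 1 h) to 34.2 ± 5.73 (pH 6, 8 h) and 34.7 ± 3.10 (pH 4.5, 8 h), and the last pair did not differ beyond its spread. The lowest of these means lay under the signal of 11.1 that marks the filter on low probe sets, and COR27 passed that filter through its other groups. The constant added before log2 makes the folds below smaller than the ratio of signals, and that ratio is itself uncertain at signals so low. This limit holds for the COR27 tests of pH at 1 h, of the change of the pH effect and of time at pH 6.

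AT4G33980 was highest after 1 h at pH 4.5. Its arrays at 1 h read 79.1, 60.7 and 68.2 at pH 4.5 and 50.0, 34.9 and 21.2 at pH 6. At 8 h they read 55.9, 36.6 and 58.4 at pH 4.5 and 40.3, 33.2 and 31.7 at pH 6. The pH groups were separate at 1 h, while at 8 h replicate 2 of pH 4.5 fell inside the range of pH 6. The means were 69.3 ± 9.23 and 35.4 ± 14.4 at 1 h, and 50.3 ± 11.9 and 35.0 ± 4.58 at 8 h, for pH 4.5 and pH 6 in that order. In order of level, neighbouring groups overlapped except for the upper pair, pH 4.5 at 8 h and pH 4.5 at 1 h. Replicate 3 of pH 6 at 1 h, at 21.2, was the lowest of the 12 arrays. The same array had the lowest actin 3' to 5' ratio on the first probe set pair, at 10.0 against 14.4 to 21.1 on the other arrays, and the part of this in its AT4G33980 signal was not tested.

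CCL had its highest and lowest group means at 1 h, with the order of the pH groups turned round at 8 h. At 1 h the arrays read 13.3, 13.4 and 14.0 at pH 4.5 and 70.3, 50.3 and 45.9 at pH 6. At 8 h they read 32.6, 29.9 and 47.4 at pH 4.5 and 14.3, 17.5 and 15.1 at pH 6. The pH groups were separate at both times, with pH 6 above at 1 h and below at 8 h. The means rose from 13.6 ± 0.413 (pH 4.5, 1 h) through 15.6 ± 1.64 (pH 6, 8 h) and 36.6 ± 9.43 (pH 4.5, 8 h) to 55.5 ± 13.0 (pH 6, 1 h). The upper pair of groups overlapped. The lower pair did not overlap, although the highest array at pH 4.5 and 1 h (14.0) was close to the lowest at pH 6 and 8 h (14.3).

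**Figure D1:**
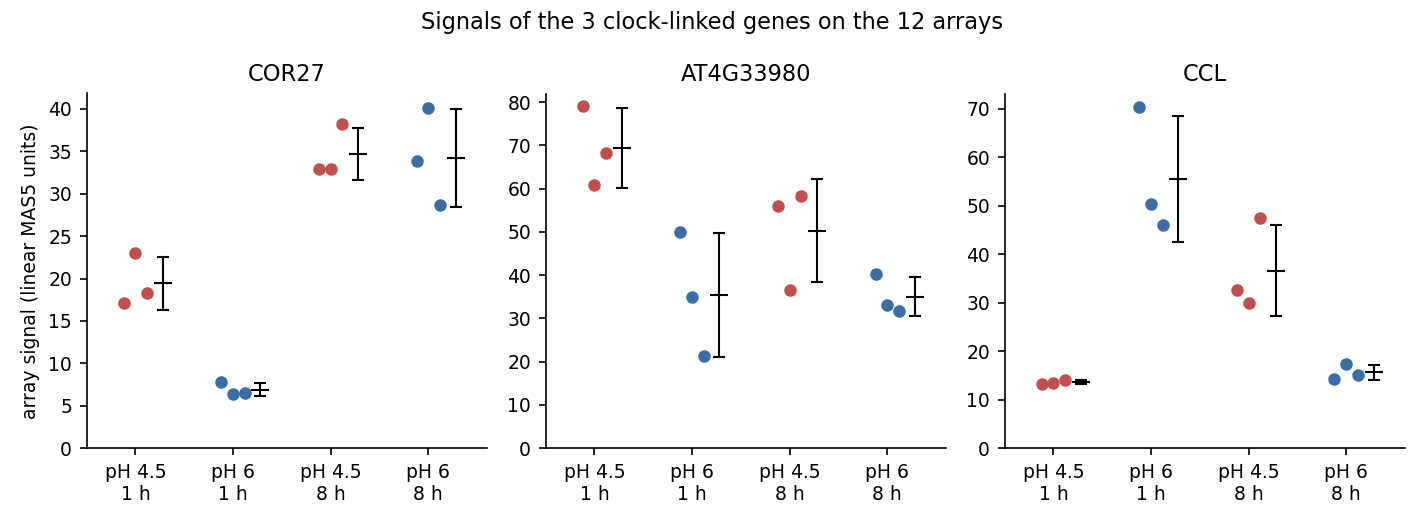
Array signal (linear MAS5 units, vertical axis from 0) of COR27, AT4G33980 and CCL in the 4 groups (horizontal axis); each dot is 1 array, red for pH 4.5 and blue for pH 6, and bars show the mean ± SD (n = 3). COR27 is higher at 8 h than at 1 h at both pH values, AT4G33980 is highest at pH 4.5 and 1 h, and CCL is high at pH 6 at 1 h and at pH 4.5 at 8 h.

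After 1 h, all 3 genes differed between the pH values, in opposite directions. COR27 was 2.15-fold lower at pH 6 than at pH 4.5, and its log2 difference was -1.10 ± 0.19 (SE; limma, adjusted p = 0.000477). The ratio of its mean signals was larger, at 2.81, but rests on a pH 6 mean under the filter level. AT4G33980 was 1.94-fold lower at pH 6 (log2 difference -0.96 ± 0.22, adjusted p = 0.00795). CCL was 3.35-fold higher at pH 6 (log2 difference 1.74 ± 0.19, adjusted p = 4.59e-06), and the ratio of its mean signals was larger, at 4.09. So 2 of the 3 genes were lower and 1 was higher at pH 6, where 10.8% of all probe sets tested passed in either direction, 5.55% lower and 5.26% higher. Of all calls 48.7% were higher at pH 6, and 33.8% when arrays were centred on their medians. The median log2 difference was 0.051 over all probe sets. Over the 3 genes it was -0.96, which is the value of AT4G33980 and no shared shift, as CCL went the other way. The call for AT4G33980 ended without replicate 3 of pH 6 (log2 difference -0.67, adjusted p = 0.0511), and that of COR27 held with a constant of 16 in place of 3.92, at a smaller log2 difference of -0.63.

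After 8 h, CCL differed between the pH values and the other two did not pass the test. CCL was 2.05-fold lower at pH 6 (log2 difference -1.03 ± 0.19, adjusted p = 0.000502). COR27 had a log2 difference of -0.026, with a 95% interval from -0.42 to 0.36 (adjusted p = 0.936). That interval excludes the size of the difference measured at 1 h. AT4G33980 had a log2 difference of -0.46, with an interval from -0.93 to 0.01 (adjusted p = 0.143), which leaves room for a difference in the direction seen at 1 h. Thus 1 of the 3 genes was called, as lower at pH 6, and 27.9% of all probe sets were called, 13.3% of them lower and 14.6% higher as shares of those tested. The median over the 3 genes was -0.46, the value of AT4G33980, which did not pass, beside 0.029 over all probe sets.

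The change of the pH effect from 1 h to 8 h was tested directly, as the pH effect at 8 h minus the pH effect at 1 h. For CCL it was -2.78 ± 0.27 on the log2 scale (adjusted p = 7.49e-07), going from a positive to a negative pH effect. For COR27 it was 1.08 ± 0.26 (adjusted p = 0.00811), going from a negative effect to one near 0. The COR27 value rests on a mean at pH 6 and 1 h under the filter level, which limits that call. For AT4G33980 it was 0.50 ± 0.32 (adjusted p = 0.327), so its pH effects at the 2 times were not shown to differ. That value was 0.21 without replicate 3 of pH 6, 1 h and 0.30 without replicate 2 of pH 4.5, 8 h, and it passed in neither case. Of the 3 genes 2 passed this test, in opposite directions, and 15.6% of all probe sets passed it, 7.19% with a positive and 8.36% with a negative change. Of all calls 46.2% were positive, and 56.5% when arrays were centred on their medians.

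COR27 was higher at 8 h than at 1 h at both pH values, CCL moved in opposite directions at the 2 pH values, and AT4G33980 passed at neither. At pH 4.5, COR27 rose by 0.73 ± 0.19 on the log2 scale (1.66-fold, adjusted p = 0.00701) and CCL by 1.19 ± 0.19 (2.28-fold, adjusted p = 0.000143). At pH 6, COR27 rose by 1.81 ± 0.19 (3.499-fold, adjusted p = 1.90e-06), from a 1 h mean under the filter level, which limits that call. In the same comparison CCL had a log2 difference of -1.59 ± 0.19, a 3.00-fold fall (adjusted p = 1.22e-05). The differences of AT4G33980 were -0.45 at pH 4.5, with an interval from -0.92 to 0.02 (adjusted p = 0.164), and 0.050 at pH 6, with an interval from -0.42 to 0.52 (adjusted p = 0.907). At pH 4.5, 2 of the 3 genes were called, both higher at 8 h, and 23.8% of all probe sets were called, 12.7% of them higher and 11.1% lower as shares of those tested. At pH 6, 1 was higher and 1 lower, against 19.5% of all probe sets called, 8.91% higher and 10.6% lower. The comparisons of pH and of time use the same 12 arrays, so these values are not separate measurements. The test that COR27 and CCL passed for the change of the pH effect is, in the same fit, the test that their time differences differed between pH 6 and pH 4.5.

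**Figure D2:**
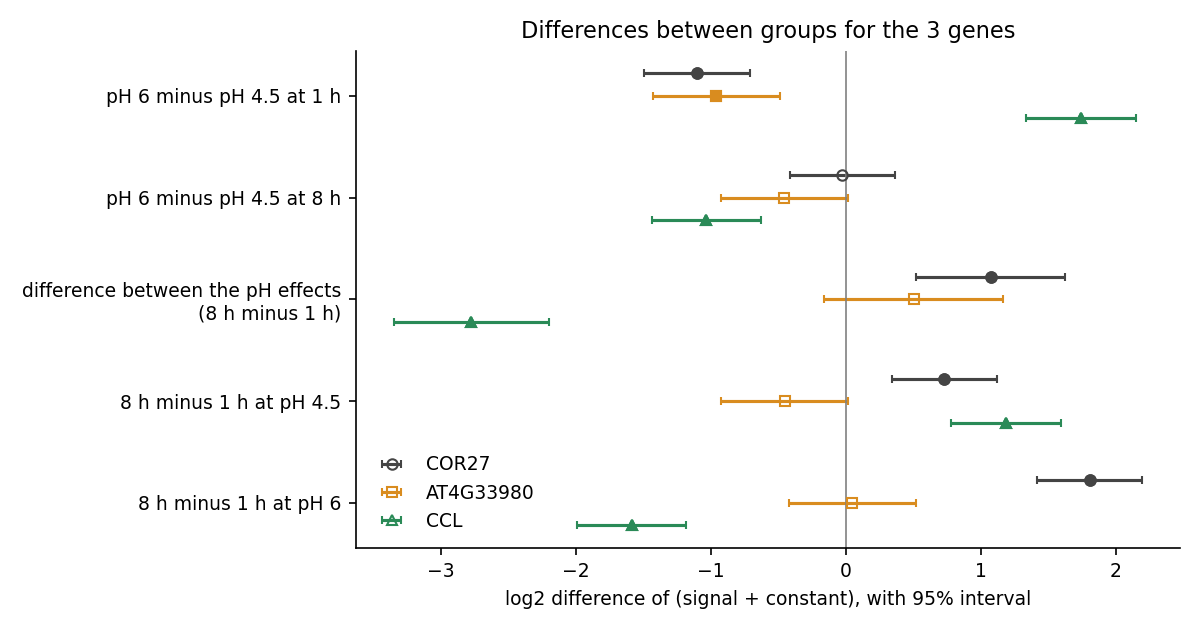
Log2 difference of (signal + 3.92) between groups (horizontal axis) in the 5 comparisons (vertical axis) for COR27 (circles), AT4G33980 (squares) and CCL (triangles), with 95% intervals; filled symbols passed an adjusted p of 0.05 and open ones did not. CCL changes sign between 1 h and 8 h, from 1.74 to -1.03, while COR27 goes from -1.10 to -0.026.

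The other clock genes that could be named were read in the same roots. The probe table gives a single gene for 13513 of the 22810 probe sets, so a clock gene not named may still be on the array. Only 2 of 27 core clock loci were named, so the genes below do not stand for clock transcripts as a whole. Of 48 loci in 3 lists of clock genes (morning and day, evening, and outputs with modulators), 5 had a single-gene probe set in that table, and all 5 were tested. AT1G69570 passed the filter through its 1 h groups and is described apart from the counts, which cover the other 4. At pH 6 against pH 4.5, 1 of these 4 was lower at 1 h, where 5.55% of all probe sets were called lower, and 1 was lower at 8 h, where 13.3% were. Between 1 h and 8 h, 2 of the 4 were lower at 8 h at pH 4.5 and 1 at pH 6, where 11.1% and 10.6% of all probe sets were called lower. In these 4 comparisons 0 of the 4 genes were higher by limma, nor was any higher at an unadjusted p under 0.05. Of all probe sets, 5.26% were called higher at pH 6 at 1 h and 14.6% at 8 h. Between the times, 12.7% were called higher at 8 h at pH 4.5 and 8.91% at pH 6. With only 4 genes, a count of 0 is close to these shares and shows no common direction. The median log2 difference between 8 h and 1 h over the 4 was -0.091 at pH 4.5 and -0.15 at pH 6, beside 0.024 and 0.0069 over all probe sets.

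GI, or GIGANTEA, a large evening-phased protein of the clock and of day-length sensing, fell from 1 h to 8 h at both pH values. At 1 h its signals were 359.8, 380.0 and 349.4 at pH 4.5 and 354.9, 359.7 and 351.1 at pH 6. At 8 h they were 151.3, 174.7 and 169.3 at pH 4.5 and 144.9, 122.0 and 139.2 at pH 6. The 1 h arrays were all above the 8 h arrays, and the pH groups overlapped at 1 h. The log2 differences between 8 h and 1 h were -1.12 ± 0.09 at pH 4.5 (2.17-fold, adjusted p = 4.98e-08) and -1.37 ± 0.09 at pH 6 (2.58-fold, adjusted p = 1.52e-08). GI had a log2 difference of -0.030 between the pH values at 1 h (95% interval -0.23 to 0.17, adjusted p = 0.886) and of -0.28 at 8 h (adjusted p = 0.0319). Its pH effect was not shown to change with time (-0.25 ± 0.13, adjusted p = 0.232). COR27 and CCL passed that same test, COR27 with a mean at pH 6 and 1 h under the filter level.

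TIC, or TIME FOR COFFEE, a nuclear regulator of clock gene expression, differed with pH at 1 h in the same direction as COR27. Its signals at 1 h were 384.5, 339.1 and 358.3 at pH 4.5 and 260.7, 286.5 and 198.6 at pH 6, with no overlap (log2 difference -0.54 ± 0.11, adjusted p = 0.00361). At 8 h the means were 280 ± 14.5 and 288 ± 17.5, and the log2 difference was 0.042 (adjusted p = 0.824). The change of this pH effect was 0.59 ± 0.16 (adjusted p = 0.0180). TIC fell by 0.36 on the log2 scale from 1 h to 8 h at pH 4.5 (adjusted p = 0.0271), where COR27 rose. XCT, or XAP5 CIRCADIAN TIMEKEEPER, a nuclear protein needed for normal clock pace, passed in 0 of the 5 comparisons by limma, and in 0 at an unadjusted p under 0.05, with group means between 42.7 and 52.9.

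AT1G69570, from the list of outputs and modulators, had higher signals at 1 h than at 8 h at each pH. Its arrays at 1 h read 29.2, 21.3 and 27.7 at pH 4.5 and 14.1, 20.1 and 9.55 at pH 6. At 8 h they read 10.3, 9.13 and 6.34 at pH 4.5 and 1.77, 2.22 and 3.85 at pH 6. Both 8 h means, 8.59 ± 2.03 and 2.61 ± 1.09, were under the filter level of 11.1, so its differences are given as signals with no test. AT5G52660, from the morning and day list, had group means between 44.4 and 56.2 and passed in 0 of the 5 comparisons by limma. It passed 1, the change of the pH effect (-0.50 ± 0.23), at an unadjusted p under 0.05.

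Genes of light and cold responses stood as follows, since COR27 and COR28 respond to both. Of 10 light-induced loci, 1 was named and tested. This was HYH, a bZIP transcription factor of light signalling related to HY5, which was higher at 8 h at both pH values. Its arrays read 23.9, 22.6 and 24.0 (pH 4.5) and 24.8, 19.4 and 13.8 (pH 6) at 1 h, and 37.7, 39.1 and 47.2 (pH 4.5) and 37.7, 41.5 and 40.4 (pH 6) at 8 h. The log2 differences were 0.72 ± 0.18 (adjusted p = 0.00551) and 0.94 ± 0.18 (adjusted p = 0.000905), the same direction as COR27. HYH passed in neither pH comparison, with log2 differences of -0.27 at 1 h (adjusted p = 0.394) and -0.043 at 8 h (adjusted p = 0.886). Of 15 cold-regulated loci, 3 were named and 1 was bright enough to be tested. COR47, a dehydrin, had group means of 2872, 2472, 2333 and 1969.6 at pH 4.5 and pH 6 after 1 h and at pH 4.5 and pH 6 after 8 h, and passed in 0 of the 5 comparisons by limma. At an unadjusted p under 0.05 it would have been lower at 8 h at both pH values (log2 differences -0.30 and -0.32). COR15A and COR15B, chloroplast proteins of cold acclimation, stayed at or under signals of 7.13 and 13.2 on every array.

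**Figure D3:**
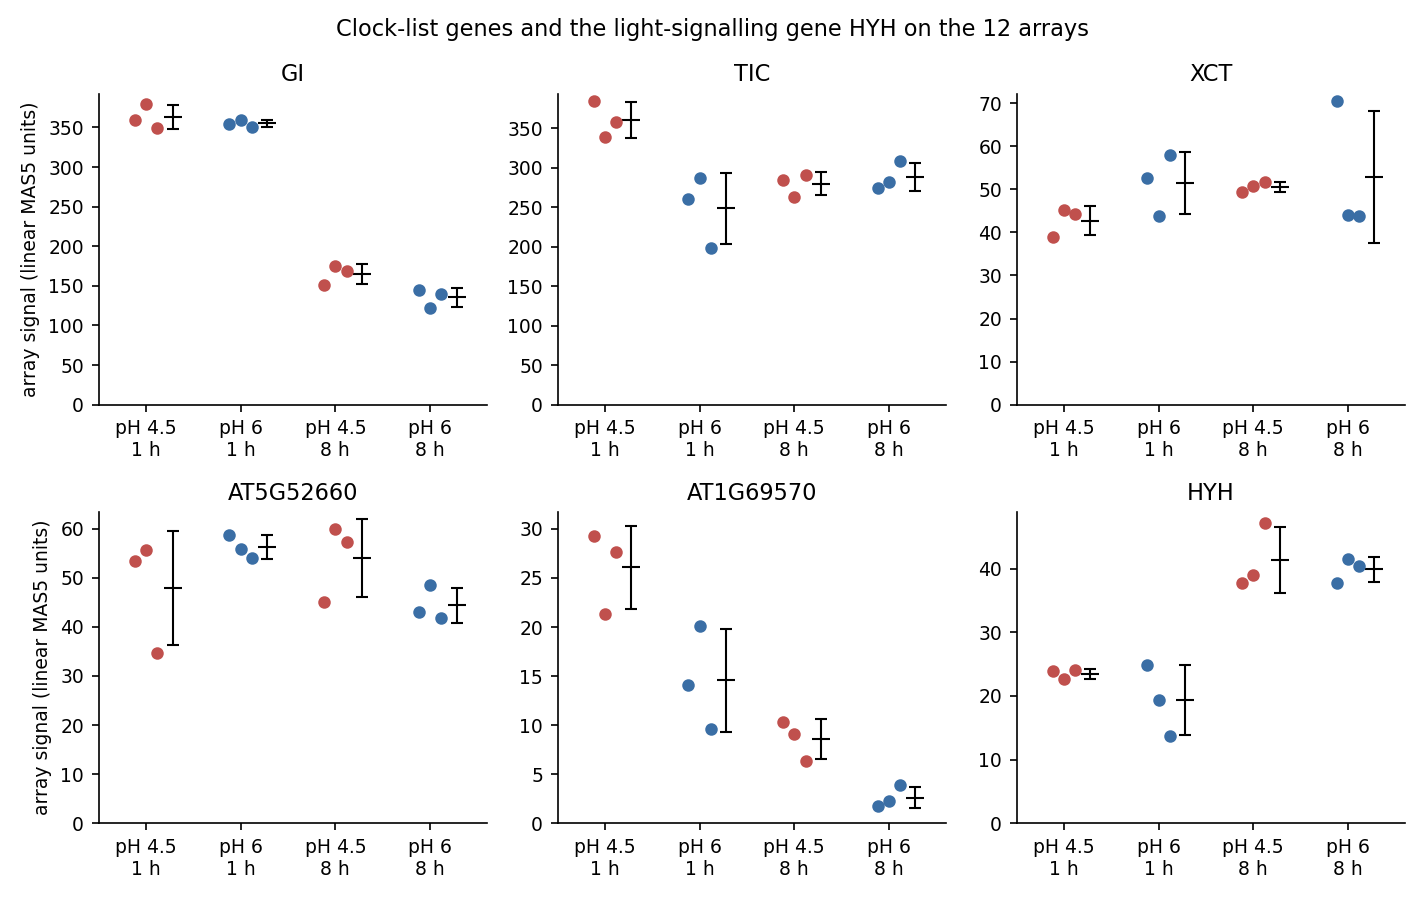
Array signal (linear MAS5 units, each vertical axis from 0) of the 5 clock-list genes with a named probe set and of HYH in the 4 groups (horizontal axis); dots are arrays, red for pH 4.5 and blue for pH 6, with mean ± SD (n = 3). GI stands between 349.4 and 380.0 on the 6 arrays at 1 h and between 122.0 and 174.7 on the 6 arrays at 8 h, while HYH is higher at 8 h.

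Markers of root cells and of photosynthetic shoot cells were read beside the labelled tissue. Of 16 root cell markers, 2 were named, the root hair expansins EXPA7 and EXPA18. Their summed signals lay between 127.4 and 267.7 on the arrays. EXPA7 was higher at pH 6 at 8 h (log2 difference 0.96 ± 0.15, adjusted p = 0.000106 by limma), where CCL was lower, and lower at 8 h than at 1 h at pH 4.5 (-0.55 ± 0.15, adjusted p = 0.0145), where CCL and COR27 were higher. EXPA18 passed in 0 of the 5 comparisons by limma, and in 0 at an unadjusted p under 0.05. The part of root hair RNA in the differences of CCL and COR27 was not tested. Of 16 markers of photosynthetic shoot cells, 3 were named. All deposited values are above 0, so a signal above 0 does not by itself show that a marker was expressed. RCA (rubisco activase), LHCB4.1 (a light-harvesting protein) and PSAN (a photosystem I subunit) had summed signals of 115.9 to 181.5 at pH 4.5 and 156.5 to 185.1 at pH 6 after 1 h. After 8 h the sums were 59.7 to 75.7 at pH 4.5 and 67.9 to 97.6 at pH 6. RCA and LHCB4.1 fell from 1 h to 8 h at both pH values, by log2 differences of -1.02 and -0.91 at pH 4.5 and of -0.72 and -0.82 at pH 6. PSAN fell at pH 4.5 (-1.14 ± 0.36, adjusted p = 0.0257). At pH 6 its arrays read 46.3, 37.5 and 31.8 at 1 h and 15.0, 2.73 and 0.626 at 8 h, and the 8 h mean of 6.11 was under the filter level. These markers were lower at 8 h, as GI was, where COR27 and HYH were higher, and their part in the time differences of COR27 and CCL was not tested. In the pH comparison at 1 h, where COR27, AT4G33980 and CCL were called, 0 of these 3 markers passed by limma. Of all probe sets 10.8% passed there, and with only 3 markers a count of 0 is close to that share. The log2 differences of the 3 markers lay between 0.074 and 0.36. LHCB4.1 (0.36) was the 1 of them with an unadjusted p under 0.05. At 8 h, where CCL was lower at pH 6, RCA and LHCB4.1 had positive differences that did not pass (adjusted p = 0.178 and 0.0536). PSAN passed by limma as lower at pH 6 (log2 difference -1.11, adjusted p = 0.0265). Its pH 6 mean was under the filter level, which limits that call, and its pH groups overlapped, with 10.8 to 16.04 at pH 4.5.

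Genes with the most similar pattern were found by the Pearson correlation of log2 values over the 12 arrays, among 8789 other single-gene probe sets tested. The arrays share groups and scaling, so the coefficients describe likeness of pattern and have no p. For COR27 the 3 nearest were AT3G19030 (r = 0.97), AT5G05960 (r = 0.94) and AT5G41670 (r = 0.92). The group means of AT3G19030 were 739 and 436 at 1 h and 1105 and 1102 at 8 h, for pH 4.5 and pH 6. For CCL the nearest were AT5G42830 (r = 0.98), AT1G26380 (r = 0.97) and AT1G26420 (r = 0.94). They were chosen for their likeness to CCL over these arrays, so their levels are a description with no test. AT1G26380 had means of 31.0 ± 3.01 and 114 ± 6.97 at 1 h and 76.2 ± 3.22 and 27.9 ± 6.28 at 8 h, for pH 4.5 and pH 6. For AT4G33980 the nearest were AT5G52070 (r = 0.90), AT5G04550 (r = 0.88) and CCT2 (r = 0.87), an enzyme of phosphatidylcholine synthesis. Chosen in the same way, these had higher means at pH 4.5 than at pH 6 at both times. Replicate 3 of pH 6 at 1 h was the lowest array for each of them, at 29.6, 85.7 and 39.4, as for AT4G33980. The part of this array in their likeness was not tested.

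The 3 clock-linked genes were not among each other's nearest. By the same measure, COR27 and AT4G33980 had r = 0.21, COR27 and CCL r = -0.51, and AT4G33980 and CCL r = -0.29. Within groups, after each group's mean was taken off, the coefficients over the 12 arrays were 0.18, 0.56 and 0.69 in that order, so both negative signs came from the differences between group means. AT4G33980 ranked 2730 of 8789 probe sets in likeness to COR27.

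**Figure D4:**
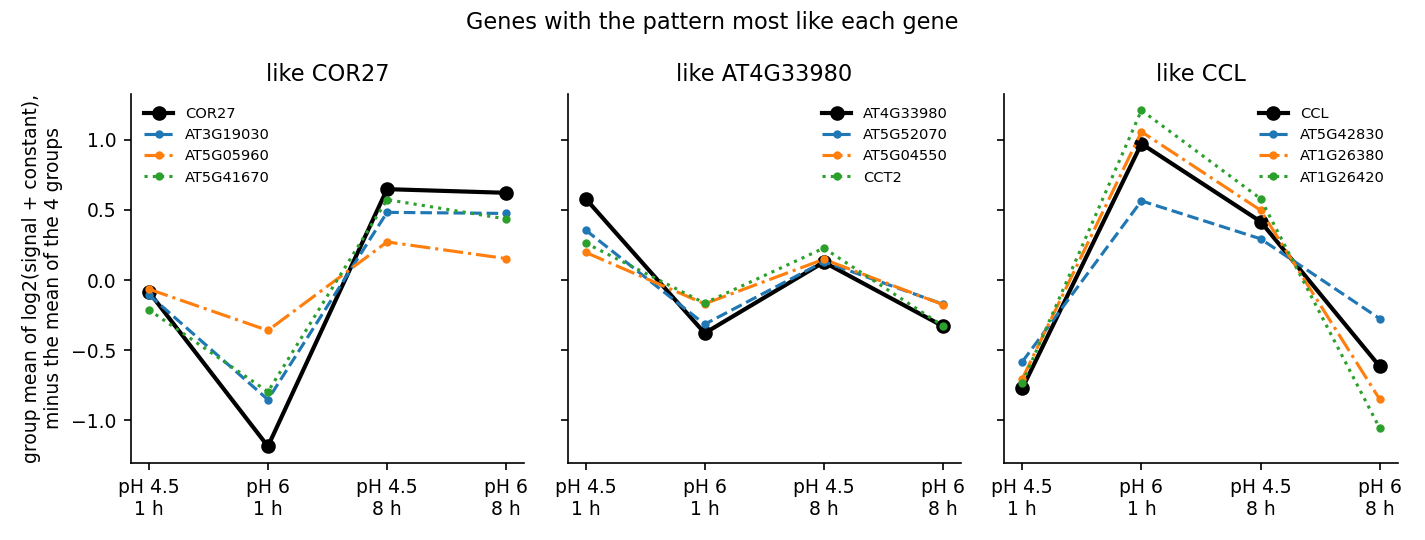
Group means of log2(signal + 3.92), each minus the mean of the gene's 4 group means (vertical axis, log2 units), in the 4 groups (horizontal axis; lines join the groups only to guide the eye) for COR27, AT4G33980 and CCL (black) and the 3 genes with the highest correlation to each. The black lines differ in shape from panel to panel, and the genes like CCL share its 2 high groups, pH 6 at 1 h and pH 4.5 at 8 h.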

How the data were processed

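Per the labels, total RNA carried a biotin label from the 3' IVT kit and went onto ATH1 arrays. The intensity values deposited by the authors come from MAS5 and GCOS (versions not stated), per the submitters' processing notes. The values are linear, above 0 and scaled per array. Genes were named through the probe table, with RefSeq symbols of assembly TAIR10.1, and 503 probe sets listed with several genes were not used.

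A constant of 3.92, or 10% of the median signal, was added before log2 was taken. Probe sets whose mean signal lay under the 30th percentile (11.1) and 64 controls were left out, which left 15922. All 12 arrays entered a single fit with a mean for each group (limma 3.58.1, R 4.3.3; lmFit, eBayes with intensity trend, 8 residual degrees of freedom), with two-sided p-values adjusted over all probe sets by Benjamini-Hochberg at 0.05. The procedure was tested on simulated data. Python 3.11.15 read the files and drew the figures.

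The members and lists were chosen with earlier results of these data known. Named genes were the 3 members, the 3 genes most like each, and up to 4 genes per list. Replicate numbers were checked for pairing: 5 of 18 same-numbered pairs of arrays had deviations from group means correlated above 0.1 (range -0.09 to 0.17). Of pairs with different numbers, 2 of 36 did, and the medians were 0.037 and -0.031 in that order. Same-numbered arrays were thus slightly more alike. These correlations were weak, so the main fit used no block, and a block was run as an alternative. Alternatives were other constants (1 and 16), no filter, median centring, quantile normalization, no trend, the replicate block, and leaving out each array. No sequences are given.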

Additional observations from a re-analysis of the deposited data

Results flagged for a closer look

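The pH effect of COR27 differed between the times by the test of the difference itself, with a value of 1.08 on the log2 scale (pH effect at 8 h minus pH effect at 1 h). Its 3 arrays at pH 6 and 1 h read 6.38 to 7.82, and the arrays of the other groups read 17.1 to 40.1. The pH effect of CCL differed between the times by the same test, with a value of -2.78, and its pH groups were separate at both times in opposite order.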

How the results depend on the processing

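Each of 15 gene differences (3 genes in 5 comparisons) and 5 counts of called probe sets was recomputed under 7 processing alternatives and without each of the 12 arrays. Of the 285 gene values so obtained, 280 kept their direction and their side of the threshold, and every count stayed within 1.5 times the main one. The exceptions all came from leaving out an array. The pH difference of AT4G33980 at 1 h no longer passed without replicate 3 of pH 6, 1 h (-0.67, adjusted p = 0.0511), and ranged from -1.22 to -0.67 over the arrays left out. The pH difference of COR27 at 8 h, not called, turned positive without replicate 3 of pH 4.5, 8 h (0.039) or of pH 6, 8 h (0.081), in a range of -0.14 to 0.081. The time difference of AT4G33980 at pH 6, not called, turned negative without replicate 3 of pH 6, 1 h (-0.24) or replicate 1 of pH 6, 8 h (-0.044), in a range of -0.24 to 0.31. The cause was not tested.

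The constant of 16 made COR27 differences smaller, at -0.63 for pH at 1 h, 0.61 for the change of the pH effect and 1.13 for time at pH 6. It also made the pH differences of CCL smaller, at 1.26 at 1 h and -0.72 at 8 h. With the replicate block, 1857 probe sets were called for pH at 1 h (1720 without it) and 4612 at 8 h (4444 without it), and no call of the 3 genes changed. An array correlated best with its own number in 17 of 36 comparisons with another group, a hint from the data and not the design. Centring arrays on their medians moved the share of higher calls from 48.7% to 33.8% for pH at 1 h and from 46.2% to 56.5% for the change of the pH effect. Signals under the filter level limit what can be said of COR27 at pH 6 and 1 h.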

Other observations

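One further list, of starch turnover genes with a daily rhythm in leaves, had 1 of 10 loci named and tested. DPE1, a plastid enzyme that rearranges short glucans during starch breakdown, had signals of 28.3, 29.2 and 29.6 at pH 4.5 and 8 h, below those of every other array. Its means were 43.3 ± 6.19 and 52.0 ± 2.55 at 1 h and 29.1 ± 0.662 and 45.5 ± 3.43 at 8 h, for pH 4.5 and pH 6. It was higher at pH 6 at 8 h (log2 difference 0.58 ± 0.14, adjusted p = 0.00335 by limma) and lower at 8 h than at 1 h at pH 4.5 (-0.51 ± 0.14, adjusted p = 0.00940). Of 7 loci induced by darkness or sugar starvation, 0 had a single-gene probe set in the probe table, so that list was not analysed here.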
